A study of Mus musculus with 2 samples.

Results

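Smoc2 and Pcp4 mesenchyme is the working name for 88 mesenchymal cells of mouse dental pulp, 10 in the Vegfr2 knockout library and 78 in the control library. They were taken from 4012 cells kept in both libraries, 1683 of the knockout and 2329 of the control. A kept cell had at least 500 genes and 1000 unique molecular identifiers (UMIs, counts of single mRNA molecules), with at most 10% of them mitochondrial. A mesenchymal cell had UMIs of at least 3 of Lum, Dcn, Pdgfra, Prrx1, Twist1, Sfrp2 and Postn, and none of Ptprc, Cdh5, Sox10 and Notch3, which mark leukocytes, endothelium, Schwann cells and mural cells. This gate held 619 cells. A member had at least 2 UMIs summed over Pcp4, Smoc2, Mfap4, Crabp1, Nell1 and Col8a2 (score C), and more of them than of either rival set of 6 genes. Score A sums Angpt4, Col9a1, Col9a3, Cnmd, Rspo4 and Scube1, and score B sums Cldn10, Pamr1, Irx5, Scara3, Ildr2 and Fmod. The members were thus chosen by the measured UMIs of all these genes, whose values are given as a description with no test.

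The study profiled single cells of the dental pulp at postnatal day 12 in C57BL/6 mice. One library, here called the knockout, came from mice whose endothelium was made to lack Vegfr2, and 1 library came from control mice. Vegfr2 is the receptor tyrosine kinase, encoded by Kdr, through which vascular endothelial growth factor acts. The Cre driver, the deleted exons, the sexes and the number of mice pooled are not given in the sources used here. With 1 library per genotype there was no replicate check, so no test was made between genotypes, and intervals cover counting error only. In endothelial cells Kdr had 614 UMIs over 122 cells (666 CPM, UMIs per 1000000 UMIs of the class) in the knockout library, against 4594 UMIs over 342 cells (1066 CPM) in the control library. A 3′ tag does not show whether a given exon is missing, so Kdr does not check the labels. The libraries shared 3 deposited barcodes, none of them a member.

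The pulp is the soft core of the tooth and arises from the neural crest-derived dental papilla. While the root grows, its open end holds the apical papilla, a pool of dividing precursors, and the surrounding dental follicle gives rise to the periodontal ligament, cementum and alveolar bone. Wnt and Hedgehog signals act in both compartments, whereas the crown pulp matures into fibroblasts and, at its margin, dentin-forming odontoblasts.

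The members made up 10 of 235 mesenchymal cells in the knockout library (4.26%, 95% Clopper-Pearson interval 2.06 to 7.69%) and 78 of 384 in the control library (20.3%, 16.4 to 24.7%). The knockout over control ratio of shares was 0.209 (exact 95% counting interval 0.0967 to 0.406), a 4.77-fold lower share in the knockout. Of all kept cells they made up 0.594% in the knockout library and 3.35% in the control library. Score A cells made up 17.4% of the gate in the knockout library and 23.4% in the control library, a ratio of 0.744 (0.502 to 1.09). Score B cells made up 74.5% in the knockout library and 54.7% in the control library, a ratio of 1.36 (1.11 to 1.67). Shares of 1 gate sum to 100%, so a lower share of 1 class and a higher share of another cannot be told apart, and neither can a loss of cells and a difference in dissection or capture. Among barcodes outside the depth and mitochondrial limits, 4 of 104 knockout and 10 of 200 control gate barcodes would have met the score. The lineage genes removed a further 3 knockout and 38 control cells that met the score, with medians of 12456 UMIs in the knockout library and 19264 UMIs in the control library.

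**Figure D1:**
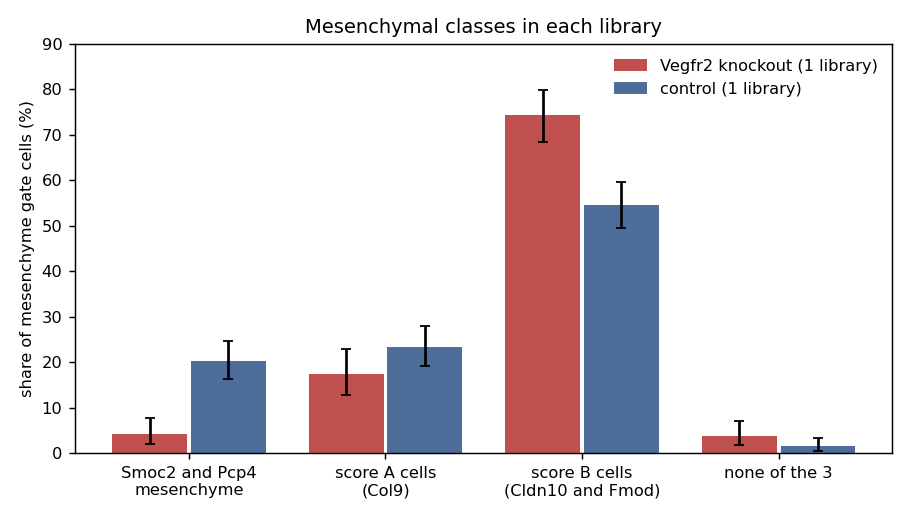
Share of mesenchyme gate cells (%) in each class, by library; bars are shares of 235 knockout and 384 control cells and whiskers are 95% Clopper-Pearson intervals. Smoc2 and Pcp4 mesenchyme stands at 4.26% in the knockout and 20.3% in the control library.

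The knockout members were shallow. They held 1076 UMIs at the lowest, 5746 at the median and 17959 at the highest, against 2418, 17545 and 38354 UMIs in control members. Score C ran from 4 to 50 with a median of 12.5 UMIs in knockout members, and from 2 to 159 with a median of 52.5 UMIs in control members. Per 10000 UMIs the median score C was 26.2 in knockout members and 30.2 in control members, and the knockout range (11.3 to 37.2) lay inside the control range (4.32 to 75.3). Just inside the score limit, 4 knockout members and 1 control member had a score C of 2 to 4, with median depths of 1496 and 2520 UMIs. Just outside the lead over scores A and B, 3 knockout and 4 control gate cells had a score C 1 to 3 UMIs behind, and 2 control cells were level. The whole series differed in depth in the same direction, with medians of 8302 UMIs per kept cell in the knockout library and 12224 in the control library. Cells with at least 5000 UMIs were also thinned to that depth and the rule applied again. Members then made up 8 of 236 gate cells in the knockout library (3.39%) and 88 of 427 in the control library (20.6%). Shallower cells were left out, among them 5 of the 10 knockout and 3 of the 78 control members. Thinning also removes UMIs of lineage and score genes, so the cells that met the rule were not the same set.

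**Figure D2:**
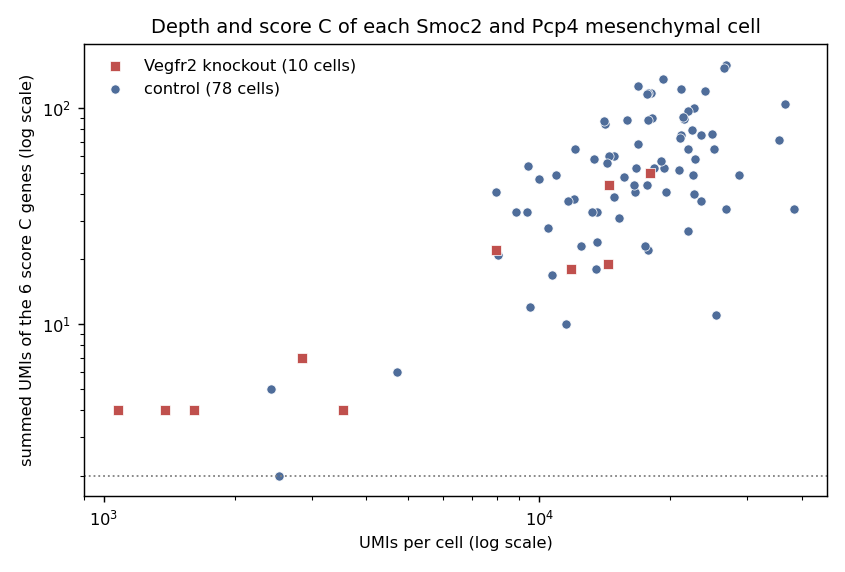
Each point is a member cell, with its UMIs on the horizontal axis and the summed UMIs of the 6 score C genes on the vertical axis, both on log scales; the dotted line is the score limit of 2. Of the 10 knockout cells, 5 lie between 1076 and 3540 UMIs, where few control cells lie.

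Pcp4, a small calmodulin-binding protein, led the score. It had 0, 5 and 26 UMIs at the lowest, median and highest knockout member, against 0, 22 and 85 UMIs in control members, which is 869 CPM in knockout members and 1446 CPM in control members. Pcp4 was the most abundant score C gene in 5 of 10 knockout members and 51 of 78 control members. Crabp1, a cytosolic retinoic acid-binding protein, had a UMI in all 10 knockout members and in 69 of 78 control members, at 856 CPM in the knockout and 622 CPM in the control. Of its 66 UMIs in knockout members, 53.0% lay in 1 cell.

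Mfap4, a microfibril-associated glycoprotein of elastic fibres, stood at 195 CPM in knockout members and 507 CPM in control members. Nell1, a secreted protein that promotes bone formation, stood at 143 CPM in knockout and 166 CPM in control members. Col8a2, a short-chain collagen of basement membranes, stood at 117 CPM in knockout and 201 CPM in control members. Smoc2, a secreted calcium-binding modular matrix protein of the SPARC family, was the least shared of the 6: it had a UMI in 2 of 10 knockout members (20%) and 42 of 78 control members (53.8%), and 7 of the 8 knockout UMIs lay in 1 cell. After thinning to 5000 UMIs Smoc2 was seen in 1 of 5 knockout members and 33 of 75 control members. Leukocytes, which should lack it, had Smoc2 in 0 of 529 knockout cells (interval up to 0.695%) and 5 of 505 control cells (0.990%), at median depths of 9578 and 14954 UMIs. All 6 genes were seen together in 1 of 10 knockout members and 28 of 78 control members.

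**Figure D3:**
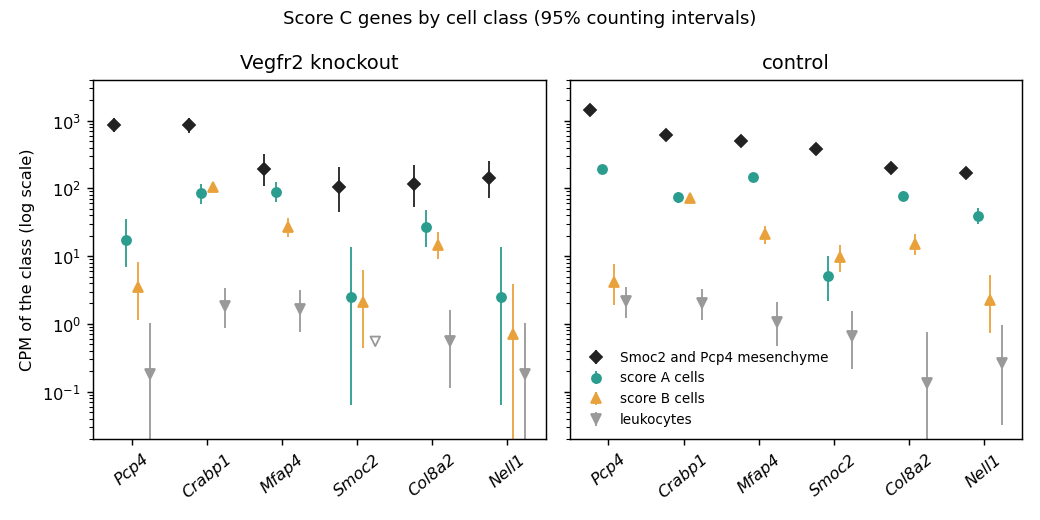
Level of each score C gene (CPM, log scale) in 4 cell classes, knockout library on the left and control library on the right; lines are 95% counting intervals and the open symbol marks 0 UMIs drawn at the floor of 3 counts. These genes chose the cells, so the height of the dark diamonds is fixed by the rule; Smoc2 stands at 104 CPM in knockout members and 379 CPM in control members.

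In the annotation of the build GRCm38 (mm10; GENCODE M21) Pcp4 lies on the forward strand of chromosome 16, from 96467606 to 96525793, and Smoc2 on the forward strand of chromosome 17, from 14279506 to 14404790. Because Pcp4 led the rule, and because Lef1, the Wnt pathway transcription factor, was among the genes with the highest control ratio over the other mesenchymal cells, the promoter windows of both genes are shown, from RefSeq on GRCm38.p6. Each runs from 250 bases before to 50 after a transcription start. Capitals mark the core motif of TCF and LEF factors, CTTTGA, or its reverse complement TCAAAG.
Pcp4 (chr16:96467356-96467655, forward strand): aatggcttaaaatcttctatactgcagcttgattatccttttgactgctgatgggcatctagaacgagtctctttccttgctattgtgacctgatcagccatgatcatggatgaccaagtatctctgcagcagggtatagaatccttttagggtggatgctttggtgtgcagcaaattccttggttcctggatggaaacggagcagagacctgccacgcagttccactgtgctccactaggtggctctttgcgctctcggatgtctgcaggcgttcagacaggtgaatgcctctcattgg
Lef1 (chr3:131156044-131156343, forward strand): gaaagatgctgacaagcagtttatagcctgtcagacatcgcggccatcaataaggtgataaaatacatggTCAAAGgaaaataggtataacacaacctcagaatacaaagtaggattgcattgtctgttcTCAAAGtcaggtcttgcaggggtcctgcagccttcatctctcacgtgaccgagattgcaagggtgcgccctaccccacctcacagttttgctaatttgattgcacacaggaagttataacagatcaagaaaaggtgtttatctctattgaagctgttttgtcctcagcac
The Pcp4 window holds 0 matches. Lef1 has 4 windows in the table, and the one shown is the one with matches, of which it holds 2. The motif occurs in 5257 of 32851 windows of this length (16.0%), so a match describes the letters and not a site.

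To describe how far genes outside the rule followed the 3 score classes, each cell was set beside the summed control profiles of those classes. The profiles came from cells that the rule had sorted, and a cell could go to only 1 of the 3. The counts thus do not show whether the members are 1 kind of cell. The nearest profile was that of the highest multinomial likelihood over 30833 genes, with all rule genes left out. Of the knockout members, 8 of 10 were nearest to the member profile, 2 to the score A profile and 0 to the score B profile. Of the control members, 67 of 78 were nearest to their own profile, 11 to score A and 0 to score B. Each control cell was left out of its own class profile before it was compared, and knockout cells were in none of the profiles. In the reverse direction, 0 knockout cells of scores A and B were nearest to the member profile, and in the control library 5 of 90 score A cells and 1 of 210 score B cells were. The control profiles placed knockout score A cells poorly, with 18 of 41 nearest to their own profile and 23 to score B. In the control library 74 of 90 score A cells were nearest to their own. Where a member was nearest to another class, that class was score A.

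Both libraries gave few genes for which the members stood above the other mesenchymal cells. The knockout members summed to 77060 UMIs, against 1372434 UMIs in control members. A gene was measured where the pooled level gave at least 10 expected UMIs in each group, and was called at a ratio of at least 2 or at most 0.5. Of 1182 genes measured in both libraries outside the rule, 8 (0.677%) were at least 2-fold higher in the members in both libraries and 149 (12.6%) at least 2-fold lower. In the knockout library alone, 70 (5.92%) were higher and 260 (22%) lower. The 6 higher genes that met the naming rule were Ptn, Hnrnpa1, Dclk1, Wif1, Gpc3 and Dlx6os1.

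Ptn, encoding the heparin-binding growth factor pleiotrophin, was the most pronounced. It had 446 UMIs in 10 of 10 knockout members (5788 CPM), against 240 CPM in the other mesenchymal cells of that library, 24.2-fold higher (21.1 to 27.6). Ptn had 39.2% of those UMIs in 1 knockout member and stood at 4156 CPM without that cell. In the control library it had 7221 UMIs in 77 of 78 members (5262 CPM), against 711 CPM in the other mesenchymal cells, 7.40-fold higher (7.08 to 7.74). In control score A cells, the class nearest to the members, Ptn stood at 1060 CPM. Wif1, a secreted Wnt inhibitor, stood at 506 CPM in knockout members against 217 CPM in the other cells, and at 1098 CPM in control members against 349 CPM. Gpc3, a cell-surface proteoglycan that binds growth factors, was 5.64-fold higher in knockout members and 2.21-fold higher in control members than in the other mesenchymal cells. Dclk1, a microtubule-associated kinase, was 3.82-fold and 2.34-fold higher in the same order, and Dlx6os1, an RNA antisense to the Dlx6 region, 3.98-fold and 2.07-fold. The counting of reads by strand is not stated in the sources used here, so Dlx6os1 cannot be told from its sense partner.

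Against score A cells alone, 35 of 1198 genes (2.92%) were at least 2-fold higher in knockout members and 214 (17.9%) lower, and in control members 568 of 9873 (5.75%) were higher and 594 (6.02%) lower. In both libraries together 5 genes (0.417%) were higher and 87 (7.26%) lower. Against score B cells, 79 of 1170 genes (6.75%) were higher in knockout members and 275 (23.5%) lower, and in control members 800 of 9987 (8.01%) were higher and 1135 (11.4%) lower. In both libraries together 30 (2.56%) were higher and 188 (16.1%) lower than in score B cells. Ptn was higher than in either class in both libraries, 15.5-fold over score A cells and 29.2-fold over score B cells in the knockout, and 4.96-fold and 11.2-fold in the control. Wif1 was also above both classes, by 2.88-fold and 2.18-fold in the knockout and by 3.35-fold and 3.004-fold in the control. Gpc3 was 1.31-fold and Dclk1 1.54-fold above score A cells in the control library, short of the 2-fold limit.

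The lower genes were led by Tnfaip2, Stc2, Nabp1, Btg2, Trf, Igfbp5, Egr1 and Enpp2. Igfbp5, an insulin-like growth factor-binding protein abundant in mature pulp, had 3 UMIs in the knockout members (38.9 CPM), against 3663 CPM in the other mesenchymal cells of that library. In the control library it stood at 189 CPM in the members, against 2512 CPM in the others, 13.3-fold lower, and 43.1% of the member UMIs lay in 1 cell. Trf, encoding transferrin, stood at 77.9 CPM in knockout members against 1967 CPM in the others, and at 74.3 CPM in control members against 1024 CPM. Stc2, encoding the secreted glycoprotein stanniocalcin 2, had 1 UMI in knockout members and 7 UMIs in control members, against 200 CPM and 168 CPM in the other mesenchymal cells of each library. Tnfaip2 was at 0 UMIs in knockout members and at 1 UMI in control members. Against score A cells, Trf was 0.207-fold in the knockout library and 0.540-fold in the control library, short of the 2-fold limit in the control. Stc2 (0.0589-fold), Enpp2 (0.0972-fold) and Igfbp5 (0.188-fold) were still lower than in control score A cells. Tnfaip2 and Nabp1 were themselves low in control score A cells, at 10.2 CPM and 9.55 CPM.

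Immediate early genes, which are switched on within minutes of a stimulus, were low in the members of both libraries. All 12 measured genes of the list of 15 were at least 2-fold lower in knockout members than in the other mesenchymal cells (median log2 ratio -3.16), and all 14 measured were in control members (median -2.62), against medians of -0.13 and -0.04 over all measured genes. Fos stood at 130 CPM in knockout members and 111 CPM in control members, against 928 CPM and 770 CPM in the other mesenchymal cells of each library. Egr1 stood at 77.9 CPM in knockout members, with all 6 UMIs in 1 cell, and at 52.5 CPM in control members, against 1022 CPM and 699 CPM in the others. At 5000 UMIs per cell the median was 3 immediate early UMIs in both knockout and control members, 31 and 10 in score A cells, and 37 and 31 in score B cells of the knockout and control libraries.

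More genes could be read in the control library alone, where the members were 2-fold higher for 517 of 10023 measured genes (5.16%) and lower for 930 (9.28%). Cell cycle genes were prominent: in control members 18 of 20 exceeded the other mesenchymal cells by 2-fold or more, and the median log2 ratio was 3.53. Top2a, a DNA topoisomerase of dividing cells, had 443 UMIs, all of them in 15 of 78 control members. Cells with UMIs of 8 or more of the 20 genes made up 2 of 10 knockout members (20%, 2.52 to 55.6%) and 15 of 78 control members (19.2%, 11.2 to 29.7%). They made up 0 of 41 knockout and 4 of 90 control score A cells, and 0 of 175 knockout and 0 of 210 control score B cells. Without those cells, 1 gene of the list that was still measured, Mcm3, was at least 2-fold higher in control members (2.96-fold, 1.61 to 5.36). The omitted cells were chosen by the same 20 genes, so a fall of the list was built in. Genes of the list too low to be measured ran both ways. They reached from 9.04-fold for Mki67 (2.97 to 32.8, from 12 member UMIs) to 0.222-fold for Tpx2 (0.00530 to 1.41, from 1). Thinned to 5000 UMIs, cells with at least 5 cell cycle UMIs made up 0 of 5 knockout and 24 of 75 control members, but also 14 of 33 knockout and 26 of 85 control score A cells, so no order is read from that share.

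The genes that ranked highest after the cycling cells were left out (63 control members against 302 other mesenchymal cells, a ranking chosen after the values were seen) were Tac1, Col8a1, Lef1, Igfbp3, Gpha2, H19, Lypd1, Smpd3, Aox3 and Adamts20. Tac1, which encodes the neuropeptide substance P, had 90 UMIs in 13 of the control members, with 50% of them in 1 cell. It had 0 UMIs in the other mesenchymal cells, so it was at least 113-fold higher against a floor of 3 counts. The knockout members had 20 UMIs of Tac1 in 4 cells (260 CPM), 75% of them in 1 cell (76.7 CPM without it), and the other knockout mesenchymal cells had none. Lef1 had 79 UMIs in 26 control members, 59.5-fold above the others (24.5 to 188), and 5 UMIs in 4 knockout members. Lypd1, a GPI-anchored modulator of nicotinic receptors, had 68 UMIs in 24 control members, 23.3-fold above the others, and 8 UMIs in 5 knockout members. Adamts20, a secreted metalloprotease, had 92 UMIs in 41 control members, 15.8-fold above the others, and 13 UMIs in 4 knockout members. Ccnd1, the G1 cyclin D1, was 7.27-fold above the others in these control members. Among the genes lowest in them were Kcnk2, a potassium channel (1 UMI against 72.7 CPM in the others), Epas1, a hypoxia-inducible transcription factor (23.8-fold lower), and Chrdl1, a secreted BMP antagonist (0.0333-fold from 3 UMIs, 0.00684 to 0.0983).

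Markers of the dental follicle and of the apical papilla did not settle a name. Of 11 follicle and periodontal genes, 7 were measured in the control library, and 4 were at least 2-fold higher in members than in the other mesenchymal cells: Pthlh, the parathyroid hormone-related peptide (7.41-fold), Aspn, a small leucine-rich proteoglycan (2.78-fold), Mkx, a tendon transcription factor (2.07-fold), and Spon1 (2.07-fold). Against control score A cells, only Pthlh and Aspn of the list were at least 2-fold higher, and Mest was lower. Aldh1a2 and Scx, a retinoic acid-synthesising enzyme and a tendon and ligament factor, were at 0 UMIs in both knockout and control members. The median log2 ratio of the 7 measured genes in control members was 1.05, against -0.04 over all measured genes. The summed level of the list, which follows its most abundant genes, was lower in the members. It was 1778 CPM in knockout members against 2407 CPM in the other mesenchymal cells, and 1756 CPM in control members against 2351 CPM. Of 10 apical genes, 7 were measured in control members, where Lef1 (62.8-fold), Gli1 (3.79-fold), Pax9 (2.39-fold) and Ptch1 (2.25-fold) were higher and Msx1 was lower (0.323-fold). Over control score A cells, only Lef1 and Pax9 of the apical list were at least 2-fold higher, and Msx1 was lower. Fgf3 had no UMI in members of either library, and Notum had 1 UMI in knockout members and 0 in control members. The median log2 ratio of the measured apical genes in control members was 1.17. The summed apical level was 1077 CPM in knockout members against 1195 CPM in the others, and 1089 CPM in control members against 993 CPM. The cells are called here by their leading genes.

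Most measured genes of mature crown pulp were low. Of 7 such genes, 6 were measured in control members and 5 of them were at least 2-fold lower than in the other mesenchymal cells: Enpp6, Igfbp5, Nnat, Rab3b and Syt6. Rab3b, a vesicle-trafficking GTPase, had 0 UMIs in knockout members and stood at 16.0 CPM in control members, against 35.2 CPM and 109 CPM in the other mesenchymal cells of each library. Vcan, the proteoglycan versican, differed from the rest of that list. It stood at 5009 CPM in knockout members against 2077 CPM in the others, and at 4614 CPM in control members against 2588 CPM. With Vcan in it, the summed list stood at 5100 CPM in knockout members against 6085 CPM in the others. In the control library the sum was 4850 CPM in members against 5464 CPM. Of 10 mineral-handling genes, 5 of 7 measured were lower in control members, among them Alpl, tissue-nonspecific alkaline phosphatase, at 13.0 CPM (1 UMI) in knockout members and 67.0 CPM in control members, against 218 CPM and 187 CPM in the others. Ibsp and Spp1 had no UMI in members of either library. Smpd3, a neutral sphingomyelinase needed for mineralisation, went the other way, with 24 UMIs in 3 knockout members (54.2% of them in 1 cell) and 93 UMIs in 17 control members (15.2-fold above the other control mesenchymal cells).

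Wnt pathway genes were the signalling group with the most genes above the other mesenchymal cells. Of 24 listed, 12 were measured in control members and 7 were 2-fold or more above the others (median log2 ratio 1.61). They were the transcription factors Lef1 and Tcf7, the agonist Rspo2, the feedback inhibitor Nkd1, and the secreted inhibitors Frzb, Sfrp1 and Wif1. Tcf7 stood at 156 CPM in knockout members against 22.4 CPM in the other mesenchymal cells, and at 107 CPM in control members against 27.3 CPM. Rspo2 stood at 156 CPM in knockout members against 9.60 CPM in the others, and at 112 CPM in control members against 13.6 CPM. Axin2, a general Wnt target, was 1.18-fold higher in control members (0.718 to 1.90), and Lgr4, an R-spondin receptor, was 0.303-fold. Of 12 Hedgehog genes, 7 were measured, with Gli1 and Ptch1 higher and Gas1 lower. Against control score A cells, 0 of the 7 measured Hedgehog genes were at least 2-fold higher and Gas1 was again lower. Of 23 BMP and TGF-beta genes, 15 were measured, none higher and 4 lower (Chrdl1, Smad6, Tgfb1 and Tgfb3).

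Among 24 dental transcription factors, 20 were measured in control members, with Dlx1, Foxf2, Lhx6, Pax9, Runx2 and Tfap2b at least 2-fold higher and Msx1 and Msx2 lower. Msx1, a homeobox factor of the dental papilla, stood at 90.8 CPM in knockout members against 633 CPM in the others, and at 115 CPM in control members against 357 CPM. Of 18 elastic fibre genes, 16 were measured, with Eln, the elastin precursor (5.37-fold), Fbln5 (4.67-fold), Fbln2 (3.04-fold), Ltbp4 (2.18-fold) and Ltbp2 (2.07-fold) higher in control members, and Lox and Ltbp1 lower. Of the vessel-directed ligands, 9 of 14 were measured. Vegfa, the ligand of the deleted receptor, stood at 64.9 CPM in knockout members against 228 CPM in the other mesenchymal cells, and at 27.7 CPM in control members against 80.8 CPM. Cxcl12, a chemokine, and Adm, the peptide adrenomedullin, were also lower in control members (0.362-fold, and 0.0521-fold with an interval of 0.0106 to 0.155 from 3 UMIs), while the thrombospondins Thbs1 and Thbs2, inhibitors of vessel growth, were 2.71-fold and 2.97-fold higher. Against control score A cells, only Adm of these ligands was at least 2-fold lower, and Vegfa and Cxcl12 were not. Thbs1 and Thbs2 were at least 2-fold higher there too.

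Between genotypes, 1161 genes were measured in the members. In the knockout, 11 (0.947%) were at least 2-fold higher and 80 (6.89%) at least 2-fold lower, with a median log2 ratio of -0.11 over all of them. The depth of the 10 knockout members limits every one of these ratios. Among the higher genes were Dock10, Gm26917, Nrip1, Fubp1, Kif5b, Lars2, Cox4i2, Tia1, Dclk1 and Rsf1. The highest ratio was that of Dock10, a guanine nucleotide exchange factor, with 36 UMIs in 6 knockout members (467 CPM), against 230 UMIs in 69 control members (168 CPM), a ratio of 2.79 (1.90 to 3.97). In 1 knockout cell lay 38.9% of the knockout UMIs of Dock10, 43.5% of those of Nrip1 and 40.5% of those of Cox4i2. Cox4i2, an oxygen-regulated subunit of cytochrome c oxidase, stood at 480 CPM in knockout members and 235 CPM in control members, a ratio of 2.04 (1.41 to 2.87). Its ratio was also above 2 in score A cells (2.33, 2.04 to 2.65) and in score B cells (2.55, 2.31 to 2.82). Dclk1 had a ratio of 2.02 in members, 1.80 in score B cells and 1.16 (0.935 to 1.43) in score A cells.

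Among the genes lower in the knockout, Gpha2, a glycoprotein hormone alpha subunit, had 0 UMIs in the knockout members, against 296 UMIs in 33 control members (216 CPM), at least 5.54-fold lower against a floor of 3 counts over the knockout members. Gpha2 was also lower in score A cells, at 2.47 CPM in the knockout and 22.9 CPM in the control (ratio 0.108, 0.00266 to 0.641). In kept cells outside the gate it stood at 0.303 CPM in the knockout and 7.26 CPM in the control. Igfbp3, which binds insulin-like growth factors, had 2 UMIs in knockout members (25.95 CPM) and 479 UMIs in 41 control members (349 CPM), a ratio of 0.0744 (0.00898 to 0.270). Ogn, the proteoglycan osteoglycin, had 6 UMIs in 3 knockout members (77.9 CPM) and 760 UMIs in 59 control members (554 CPM), a ratio of 0.141 (0.0514 to 0.307). Its ratio was also below 1 in score A cells (0.316, 0.249 to 0.395) and score B cells (0.623, 0.559 to 0.693). Tpm1, an actin-binding tropomyosin, stood at 402 CPM in 8 of 10 knockout members and at 1594 CPM in all 78 control members, a ratio of 0.252 (0.171 to 0.359). Fbln1, an elastic fibre protein, stood at 38.9 CPM in knockout members and 200 CPM in control members, and Col6a3, a collagen VI chain, at 51.9 CPM and 225 CPM in the same order. Igf1, the growth factor itself, had 1 UMI in knockout members and 181 UMIs in 45 control members, but was under the count needed to be measured.

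H19, a maternally expressed imprinted RNA, had 2 UMIs in 1 knockout member and 566 UMIs in 31 control members, a ratio of 0.0629 (0.00760 to 0.228). This ratio depended on the lineage exclusion: with cells carrying lineage genes kept it was 1.28, and after thinning to 5000 UMIs with the rule applied again it was 1.81. Cdkn1c, an imprinted brake on the cell cycle, stood at 51.9 CPM in knockout members and 226 CPM in control members, whereas in score A cells it stood at 1452 CPM in the knockout and 920 CPM in the control. Mki67, Top2a, Hmgb2 and H2afz, all genes of dividing cells, were also lower. With each cell counted equally, however, the ratio was 1.13 for Hmgb2 and 1.11 for H2afz, and over all alternatives it ran from 0.113 to 5.99 for Hmgb2 and from 0.221 to 2.79 for H2afz. Of the 20 cell cycle genes 5 were measured, and 4 were at least 2-fold lower in knockout members (median log2 ratio -1.49). Top2a had 5 UMIs in 1 knockout member and 443 UMIs in 15 control members. With cycling cells left out the ratio of Mki67 was 1.17 and 0 genes of the list were measured and at least 2-fold lower. Those cells were chosen by UMIs of the same 20 genes, so a fall of the list without them was built in. Mki67 then had 12 UMIs in control members, and knockout members had 2 before the omission, so no conclusion is drawn from it. Of 22 collagen chain genes 12 were measured and 2 were lower (Col5a2 and Col6a3). Of 24 Wnt genes 3 were measured and 2 were lower, Wif1 at 506 CPM in knockout members and 1098 CPM in control members and Sfrp1 at 169 CPM in knockout members and 344 CPM in control members. All 6 measured dental transcription factors lay above 1 and below 2, with a median log2 ratio of 0.27. Over all measured genes, 471 of 1161 lay above 1, with a median of -0.11. None of the 6 reached the 2-fold limit.

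**Figure D4:**
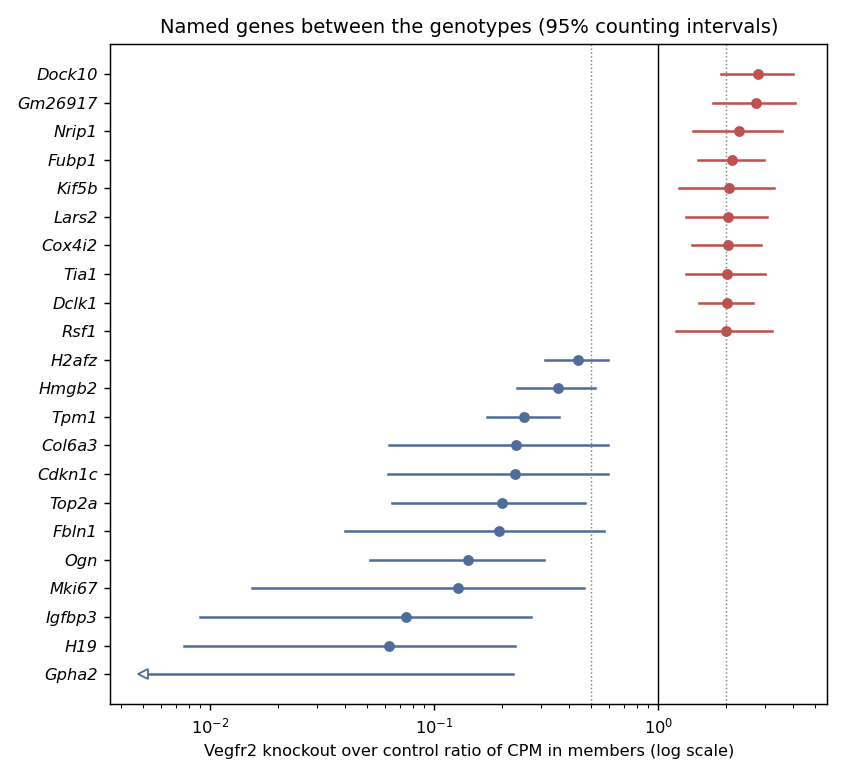
Knockout over control ratio of CPM in the members (log scale) for the named genes; points are ratios, lines are exact 95% counting intervals, dotted lines mark ratios of 0.5 and 2, and the open triangle marks 0 knockout UMIs, drawn at the edge. The intervals of Gpha2, H19, Igfbp3, Ogn, Tpm1, Mki67 and Top2a lie wholly under 0.5, whereas those of all the higher genes shown reach below 2.

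The control members varied among themselves along Smoc2. A split of the 78 control members by a Smoc2 UMI, made after the values were seen, gave 42 cells with Smoc2 and 36 without, at median depths of 17752 and 16712 UMIs. Of 7439 measured genes, 405 (5.44%) were at least 2-fold higher with Smoc2 and 225 (3.02%) at least 2-fold lower. Among the genes higher with Smoc2 were H19 (654 CPM with Smoc2 and 106 CPM without), Igfbp3 (525 CPM and 126 CPM), Angptl1, a secreted angiopoietin-like protein (168 CPM and 29.8 CPM), Gpx3, a secreted glutathione peroxidase (178 CPM and 33.1 CPM), and Aspn (250 CPM and 61.2 CPM). Genes lower with Smoc2 included Smpd3 (10.4 CPM with Smoc2 and 141 CPM without), Tac1 (37.8 CPM and 156 CPM), Sorbs2, an adaptor of the cytoskeleton (11.7 CPM and 144 CPM), Car2, carbonic anhydrase 2 (32.6 CPM and 213 CPM), and Sema5a, a semaphorin (36.5 CPM and 174 CPM). In 1 cell lay 51.6% of the H19 UMIs without Smoc2, and 62.5% of the Smpd3 and 56% of the Car2 UMIs with Smoc2. Without Smoc2, Tac1 and Igfbp3 were each seen in 8 cells, with 47.9% and 47.4% of their UMIs in 1 cell.

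Gate genes also split along Smoc2. Lum, a keratan sulfate proteoglycan, stood at 569 CPM with Smoc2 and 2851 CPM without, and Dcn, the proteoglycan decorin, at 219 CPM and 1279 CPM. Sfrp2, a secreted Wnt modulator, stood at 493 CPM with Smoc2 and 92.7 CPM without, and Postn, a matrix protein of the periodontal ligament, at 401 CPM and 97.6 CPM. Cycling cells were 7 of 42 with Smoc2 (16.7%) and 8 of 36 without (22.2%), whereas of the cell cycle list, with all 20 measured, 10 had a level 2-fold or more higher with Smoc2 and 0 lower (median log2 ratio 0.95). The share of cycling cells and the summed level of their genes thus ran in opposite directions. Of the other lists, 3 of 4 measured small leucine-rich proteoglycans (Aspn, Bgn and Ogn), 5 of 9 measured IGF genes (Igf1, Igfbp3, Igfbp4, Igfbp5 and Igfbp7), 4 of 6 vessel-directed ligands and 4 of 19 dental transcription factors (among them Dlx6, Lhx6 and Pax9) were at least 2-fold higher with Smoc2, and none of these lists had a gene at least 2-fold lower.

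The knockout members, 8 of which had no Smoc2 UMI, are set beside both control groups as a description, since Smoc2, Lum, Dcn, Sfrp2 and Postn are genes of the rule and the split followed the values. Lum stood at 2388 CPM, Dcn at 1155 CPM, Sfrp2 at 38.9 CPM and Postn at 324 CPM in knockout members. Postn was nearer to the control members with Smoc2, with 52% of its UMIs in 1 cell and 192 CPM without that cell, and the other 3 genes were nearer to those without. Aspn stood at 156 CPM in knockout members, also nearer on a log scale to the control members with Smoc2, but 83.3% of its UMIs lay in 1 cell and it stood at 31.9 CPM without that cell. Angptl1 (38.9 CPM from 3 UMIs) and Gpx3 (25.95 CPM from 2 UMIs) in knockout members lay near the control members without Smoc2. Sema5a stood at 130 CPM from 10 UMIs and Sorbs2 at 221 CPM from 17 UMIs in knockout members. For 3 further genes 1 knockout cell held most UMIs. Tac1 stood at 260 CPM in knockout members and at 76.7 CPM without that cell, Car2 at 182 CPM and 61.3 CPM, and Smpd3 at 311 CPM and 186 CPM. Without that cell Tac1 and Car2 lay between both control groups.

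Set against the 36 control members without Smoc2 only, all 12 named lower genes had ratios of at most 0.5, while 3 of the 11 higher genes no longer reached 2, with Gm26917 at 1.93, Lars2 at 1.96 and Fubp1 at 1.86. Among the lower genes the ratio was 0.206 (0.0246 to 0.772) for Igfbp3, 0.245 (0.0291 to 0.922) for H19, 0.223 (0.0809 to 0.494) for Ogn, 0.282 (0.190 to 0.403) for Tpm1, 0.277 (0.0560 to 0.837) for Fbln1 and 0.283 (0.0757 to 0.744) for Col6a3, and Gpha2 had 0 UMIs in knockout members against 147 CPM.

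**Figure D5:**
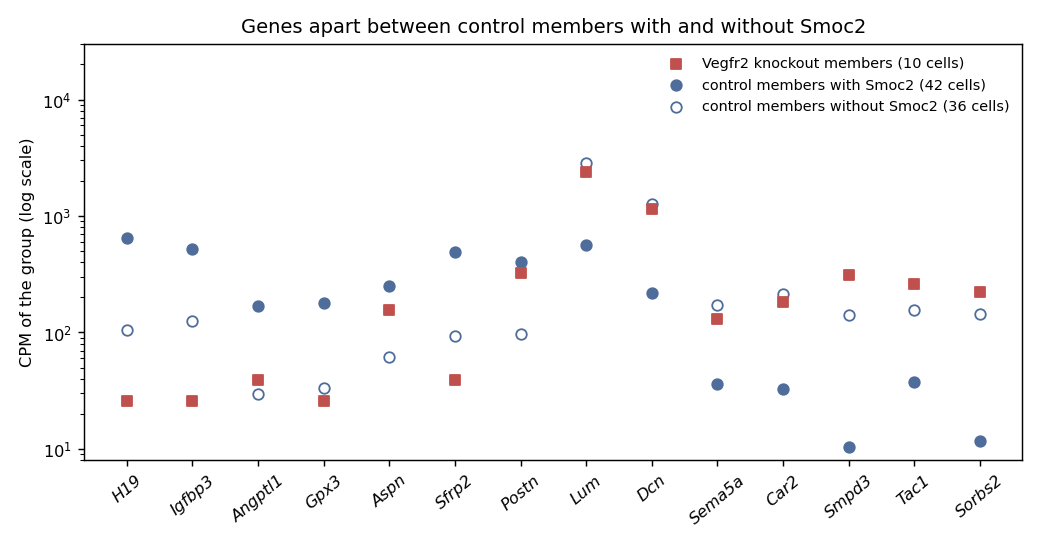
CPM (log scale) of 14 genes in knockout members (10 cells), control members with Smoc2 (42 cells) and control members without Smoc2 (36 cells). Lum and Dcn in knockout members lie near the open circles of the control members without Smoc2, Postn and Aspn lie nearer the filled circles, 1 knockout cell holds most UMIs of Aspn, Postn, Car2, Smpd3 and Tac1, and H19 and Igfbp3 (25.95 CPM each) lie below both control groups.

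Several measured properties of the members moved with the genotype, and their part in the results was not tested. The median mitochondrial share was 6.54% in knockout members and 4.43% in control members, with mt-Co3 at 16208 CPM in the knockout and 8524 CPM in the control. Cells with Xist and no Y-linked UMI were 5 of 10 knockout and 67 of 78 control members, and cells with Y-linked UMIs alone were 2 of 10 and 8 of 78. Summed leukocyte markers (6 genes) stood at 156 CPM in knockout members, from 12 UMIs and with Tyrobp at 0, and at 58.3 CPM in control members, with none at 0. Summed endothelial markers (6 genes) stood at 25.95 CPM in knockout members, with Cldn5, Emcn, Pecam1 and Tie1 at 0, and at 27.7 CPM in control members, with Cldn5 at 0. Summed Schwann markers (6 genes) stood at 143 CPM in knockout members and 111 CPM in control members, mural markers (6 genes) at 117 CPM and 103 CPM, and epithelial markers (6 genes) at 0 and 50.3 CPM, in the same order. Haemoglobin and the other erythroid markers (5 genes) were at 0 in the members of both libraries.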

How the data were processed

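Single-cell suspensions of dental pulp were sorted for propidium iodide-negative cells and made into 10x Chromium 3′ libraries, per the labels' protocols. The deposited values are raw UMI counts for 31053 genes, in 1 filtered matrix per library. Cell Ranger 6.0.1 wrote the knockout matrix and Cell Ranger 5.0.0 the control matrix, per the file headers. The submitters' processing notes give version 6.0.1 of that tool and mm10 as build, so software version and genotype cannot be told apart. The knockout matrix held 2563 barcodes and 17277162 UMIs, and the control matrix 3487 barcodes and 35918862 UMIs. No other column of samples was present.

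The members, the gene lists and the naming rule were chosen with earlier results of these data known. No doublet caller was run, and the lineage genes and an alternative without the deepest 5% of cells stand in for it. UMIs were summed per class and library and scaled to the class total as CPM. Ratios carry exact conditional 95% intervals for 2 Poisson rates, and shares carry Clopper-Pearson intervals. UMIs of 1 animal or cell are not independent, so intervals and floors (3 counts) cover counting error only. Between genotypes, genes were named that were seen in at least 5 members, with at most 50% of UMIs in 1 cell and a level of at least 25% of that outside the mesenchyme, up to 12 each way by the interval bound nearest to 1. Against the other mesenchymal cells the same filters held, with up to 15 higher and 8 lower genes. Marker and pathway genes were named from the lists. A few genes that these rules name are not reported here. The rankings in the control library alone, the omission of cycling cells and the split by Smoc2 were chosen after the values were seen. Leukocytes had Ptprc, at least 2 of 6 leukocyte markers and under 3 gate genes, and endothelial cells had Cdh5 and under 3 gate genes, each without the other lineage genes. The ratio and interval were tested on simulated counts. The tools were Python 3.11.15, numpy 2.4.6, scipy 1.17.1, pandas 2.3.3 and matplotlib 3.10.9.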

Additional observations from a re-analysis of the deposited data

Results flagged for a closer look

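For 8 genes the knockout over control ratio had its counting interval on 1 side of 1 in the Smoc2 and Pcp4 mesenchyme and on the other side in score A or score B cells. The difference between classes was not tested. Igfbp3 had a ratio of 0.0744 in the members and 3.27 in score B cells, where it stood at 13.4 CPM in the knockout and 4.09 CPM in the control. Top2a had a ratio of 0.201 in the members and 2.58 in score B cells, at 21.1 CPM in the knockout and 8.18 CPM in the control. H2afz had a ratio of 0.437 in the members and 1.31 in score B cells. H19 had a ratio of 0.0629 in the members and 1.80 in score A cells (106 CPM in the knockout and 59.2 CPM in the control), and its ratio in members turned above 1 under 3 alternatives given in the section on processing. Cdkn1c had a ratio of 0.230 in the members and 1.58 in score A cells. Gm26917, Fubp1 and Lars2 had ratios of 2.73, 2.14 and 2.05 in the members and of 0.816, 0.816 and 0.778 in score B cells.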

How the results depend on the processing

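No paired analysis was possible because each genotype had 1 library and the labels give no replicate numbers. The knockout over control ratio of the member share was below 1 under all 13 alternatives and lay between 0.129 and 0.256, except for 0.0823 with a mitochondrial limit of 5%, which left 1 of 36 knockout and 54 of 160 control gate cells. Under each alternative below, the 4 counts are the genes at least 2-fold higher and lower in knockout members (11 and 80 in the report) and higher and lower in members than other mesenchymal cells in both libraries (8 and 149). With the 5% limit they were 1, 6, 0 and 1, and thinned to 2000 UMIs they were 2, 15, 0 and 9. With at least 1 UMI in place of 10 expected they were 1755, 6334, 443 and 2623. A 20% limit gave 23 and 123 between genotypes and 15 higher in both libraries. Without the lineage exclusion 27 were higher in the knockout and 24 in both libraries. Each cell counted equally gave 32 and 134 between genotypes and 19 higher in both libraries. Thinned to 5000 UMIs, 42 were lower in the knockout and 88 in both libraries. Cells with Xist alone gave 6 higher in the knockout, and 3 higher and 89 lower in both libraries. Cells with Y-linked UMIs alone gave 22 lower in the knockout, and 1 higher and 25 lower in both libraries. Without mitochondrial, ribosomal and haemoglobin genes in the total, 17 were higher in both libraries. Without the deepest member of each library, 47 were lower in the knockout and 5 higher in both libraries. Against control members without Smoc2, an alternative chosen after seeing the data, 20 were higher in the knockout. Among single genes, 28 values turned to the other side of 1, and the cause was not tested. With the 5% limit, which left 1 knockout member, the knockout over control ratio was 0 for Dock10, Gm26917, Dclk1, Tia1 and Rsf1, 5.99 for Hmgb2, 2.10 for Fbln1 and 2.79 for H2afz, and the ratio over other knockout mesenchymal cells was 0 for Dclk1 and 0 for Dlx6os1. Thinned to 2000 UMIs, the ratio between genotypes was 0 for Gm26917, 0.730 for Dclk1, 0.723 for Lars2, 0.589 for Rsf1, 2.10 for H19, 2.32 for Hmgb2, 1.4 for Fbln1 and 1.66 for Cdkn1c, and that of Tnfaip2 over other knockout mesenchymal cells was 1.397. H19 had 1.28 without the lineage exclusion and 1.81 thinned to 5000 UMIs. In Y-positive cells the ratio was 0.467 for Dock10, 0.840 for Lars2, 0.764 for Rsf1 and 1.23 for Hmgb2. With each cell counted equally it was 1.13 for Hmgb2 and 1.11 for H2afz. Without cycling cells, an added alternative, it was 1.17 for Mki67. The 10 knockout members and their 77060 UMIs limit every ratio between genotypes.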
